A study of Mus musculus with 12 samples.

Results

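The 3 total RNA and 3 4sU (4-thiouridine) libraries of mouse epiblast-like cells (EpiLCs) were set against each other to rank transcripts by relative stability within this one cell state. These are 6 of the 12 libraries of the series, and the other 6 are total and 4sU libraries of the embryonic stem cells (ESCs) from which the EpiLCs were made. Genes were kept where they reached 3 CPM, that is, read counts scaled to libraries of equal size, in at least 3 of the 6 EpiLC libraries, which left 13516 of the 51467 genes in the count table. The cells were a V6.5 mouse ESC line that carries a miR290-mCherry and a miR302-GFP reporter, so both assays describe 1 line and its progeny. ESCs were kept in serum with LIF and 2i, the inhibitors PD0325901 and CHIR99021, and EpiLCs were taken about 56 h after LIF and 2i had been withdrawn. Both kinds of library came from cells given 500 µM 4sU for 30 min: the total libraries hold ribosomal RNA-depleted RNA of all ages, and the 4sU libraries hold biotinylated RNA caught on streptavidin beads, that is, RNA made during the pulse. The labels number replicates 1 to 3 in each assay; the study describes its replicates as biological, and the tests measure the spread between these samples.

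The EpiLC label was checked against marker genes. All 7 formative or primed markers measured, among them Otx2, Fgf5 and Dnmt3b, were higher in EpiLC total than in ESC total RNA, and their summed level was 1605 to 1934 CPM against 265 to 314 CPM. The 9 naive markers, among them Esrrb, Klf4 and Tfcp2l1, summed to 54.1 to 59.7 CPM in EpiLCs and to 2914 to 3127 CPM in ESCs. Markers of other cells summed to far less than the formative or primed markers. In EpiLC total RNA 8 fibroblast markers summed to 16.4 to 20.9 CPM (11.4 to 15.6 in ESCs) and 7 primitive endoderm markers to 18.7 to 21.4 CPM (5.12 to 12.1). The 5 primitive streak markers summed to 20.6 to 31.3 CPM (17.3 to 28.2) and 5 neural markers to 66.3 to 87.7 CPM (70.5 to 74), which is over the naive sum in EpiLCs. Lum had 0 reads in all 3 EpiLC total libraries, but 6 of the 8 fibroblast markers were higher in EpiLCs than in ESCs, among them Dcn at 4.84 against 0 CPM. The EpiLC total libraries held 9300845 to 10917711 reads on genes and the 4sU libraries 3097693 to 4344017 reads, so that 3 reads stood for 0.275 to 0.323 CPM in total and for 0.691 to 0.969 CPM in 4sU RNA. At an equal level a gene thus had fewer reads in 4sU RNA, while for genes far under the balance point, such as Lars2 and Rps29, the total libraries held fewer reads. Spearman's rho was 0.995 to 0.997 between total replicates, 0.987 to 0.99 between 4sU replicates and 0.8 to 0.813 between an EpiLC total and an EpiLC 4sU library.

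At steady state an RNA is made and destroyed at equal rates, so its level divided by its rate of synthesis rises with its lifetime. A short pulse of 4sU, a uridine analogue that cells build into new RNA, gives an estimate of synthesis, and the log2 ratio of total over 4sU is then a measure of relative stability. Short-lived messages are known for regulators whose level must change fast, often through AU-rich elements or sites for Pumilio proteins in the 3′ UTR, while messages of metabolic and structural genes are known to persist. The ratio here is relative: a value of 0 marks the point at which the trimmed mean of M-values (TMM) scaling balances both assays, not a half-life, and cells leaving the naive state may not be at steady state. Throughout, a gene is called above or below when limma-voom gave a Benjamini-Hochberg adjusted p under 0.05 over all genes tested and the log2 ratio was over 1 or under -1. CPM values are TMM-scaled.

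In EpiLCs, 2866 genes were called above the balance point and 3345 below, 21.2% and 24.7% of the genes tested. The other 7305 genes (54%) had less than a 2-fold ratio or did not pass the test. An adjusted p under 0.05 was reached by 11331 genes (83.8%), among them the 6211 called either way. Most genes thus sat off the balance point by a repeatable amount, which for the called genes was over 2-fold and for the others smaller. The sides held different kinds of gene: protein-coding genes made up 95.4% of the calls above and 53% of the calls below. Among the 135 genes in the lowest hundredth, 16 were protein-coding (11.9%, against 85.9% of all genes tested) and 67 belonged to the class TEC, annotated loci that still await experimental evidence (49.6% against 5.27%). Among the 136 genes in the highest hundredth, 93 were protein-coding, 15 were processed pseudogenes and 10 were snoRNA genes. Genes that reached the minimum in only 1 assay lean to its side through the filter itself, and all these shares include them. Of 712 TEC loci tested, 523 reached it only in 4sU RNA. Of 164 processed pseudogenes, 78 reached it only in 4sU RNA and 32 only in total RNA. Protein-coding genes had a median log2 ratio of 0.22, and all genes one of 0.04.

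The balance of the calls moved with the expression minimum. In 1381 genes (10.2%) only the 3 4sU libraries reached 3 CPM, and in 316 genes (2.34%) only the 3 total libraries (the remaining 922 genes reached it in other combinations). The 10897 genes at the minimum in all 6 libraries held 2356 calls above (21.6%) and 1745 below (16%), with a median log2 ratio of 0.17. When the scaling and the fit were repeated on these 10897 genes alone, 1864 were called above and 2026 below and the median was 0.02, so which side held more calls depended on the genes that set the scaling. The difference between the assays was thus larger than the spread between replicates for many genes that both assays measured well. Over all genes the 75th and 25th percentiles of the ratio lay 3.59-fold apart and the 99th and 1st percentiles 94.4-fold apart. The latter distance was 62.2 to 62.7-fold when any 1 of the 4sU libraries was left out, which removes genes measured in 4sU RNA alone. Over protein-coding genes these distances were 2.86-fold and 43.3-fold.

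The ratio covered a narrower range than either level from which it was made. Over the 11607 protein-coding genes the SD of log2 CPM per kilobase was 2.03 in total RNA and 1.91 in 4sU RNA, and that of the log2 ratio was 1.15. Across these genes, which share libraries and are not independent replicates, the total level per kilobase followed the 4sU level per kilobase with a Spearman's rho of 0.831. The ratio itself had a rho of 0.363 with the total level and of -0.167 with the 4sU level. The plot of the total level against the 4sU level places the gene groups described next on these axes.

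**Figure D1:**
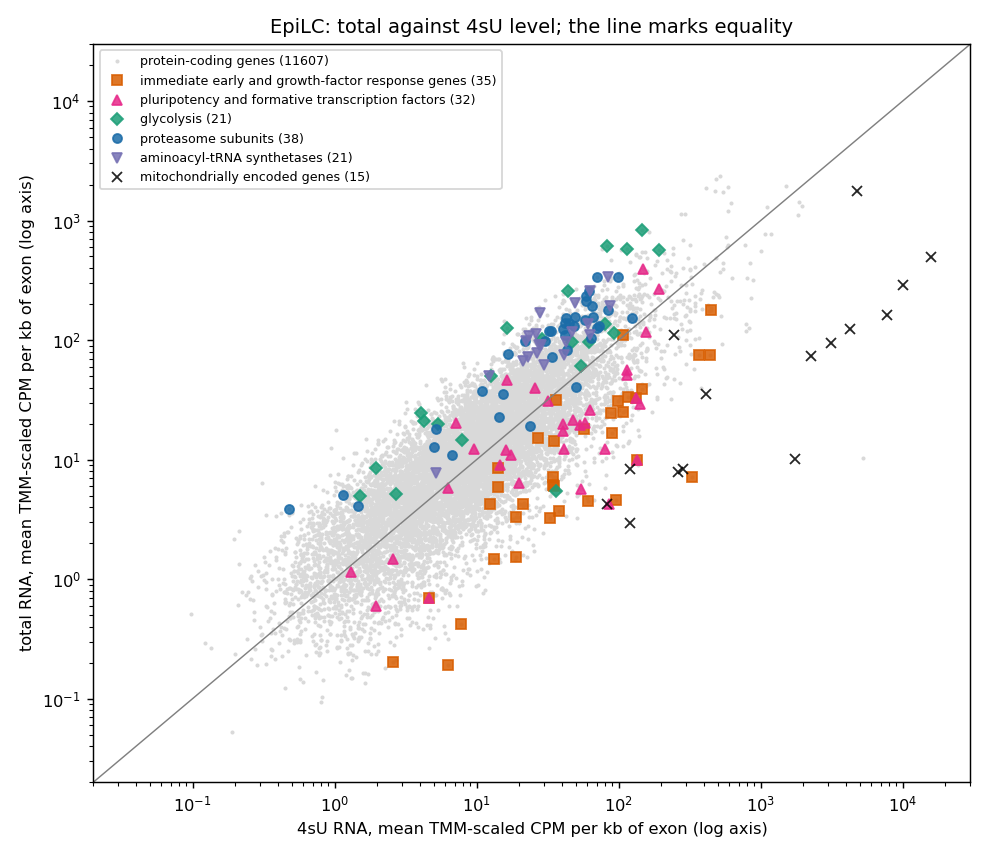
Level of each protein-coding gene in EpiLC 4sU RNA (x axis) and EpiLC total RNA (y axis), as mean TMM-scaled CPM per kilobase of exon on log axes. Coloured symbols are members of 6 gene lists and the line is an equal level in both assays. Immediate early genes lie under the line, with a median of 7.18 CPM per kilobase in total and 35.9 in 4sU RNA, and proteasome subunits lie over it, with 119 and 42.2.

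Transcript architecture moved with the ratio. When 11600 protein-coding genes were cut into deciles of 1160 genes by their ratio, the median log2 ratio went from -1.85 in the lowest decile to 1.88 in the highest. Exons per kilobase of transcript increased at every step, from 1.7 to 5.22, and were of 10 features the one with the largest rho with the ratio (0.437). The median 3′ UTR was 1334 bases in the lowest decile, 1588 in the second and 420 in the highest (rho -0.277). GC content of the transcript went from 49.6% to 54.2% and uridine content from 24.7% to 22.4%. The 310 genes with 1 exon had a median log2 ratio of -0.86, and 45.5% of them were called below and 3.9% above, against 14.4% and 24.1% of the 11290 genes with more exons.

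The letters TATTTAT, a core of AU-rich elements, and TGTANATA, the letters bound by Pumilio proteins, were searched on the transcript strand of the 3′ UTR of 1 principal transcript per gene. A match says only that these letters are present. TATTTAT was found in 3438 of 11600 3′ UTRs (29.6%) and TGTANATA in 3065 (26.4%). Genes with TATTTAT had a median log2 ratio of -0.13 and those without it 0.38, and the values for TGTANATA were -0.15 and 0.37. The share of genes with TATTTAT was 40.8% in the lowest decile and 12% in the highest, and that with TGTANATA 34.5% and 9.83%. Long UTRs hold more of any motif, so the medians were also compared within 5 bins of 3′ UTR length. Genes with TATTTAT were lower in each bin, by 0.06 up to 500 bases and by between 0.22 and 0.36 in the longer bins. Genes with TGTANATA were lower by 0.18 to 0.38. These differences across genes are descriptions, with no test.

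**Figure D2:**
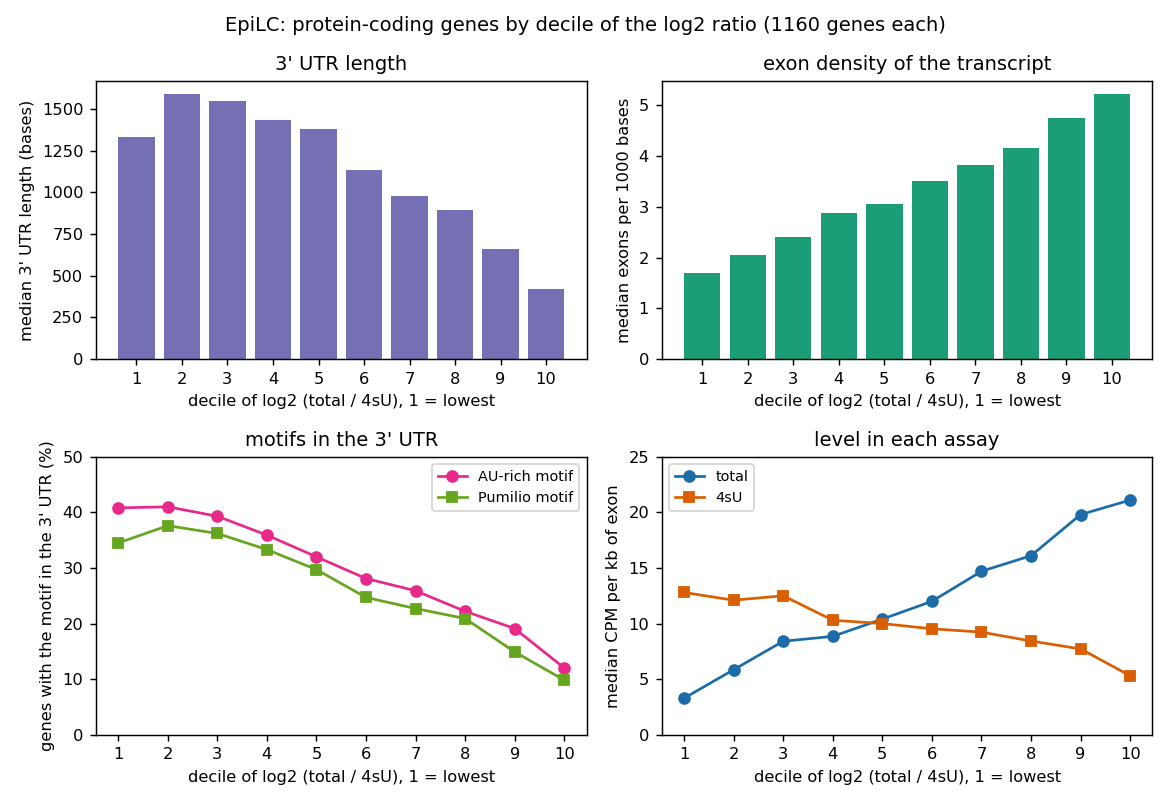
Protein-coding genes in deciles of the EpiLC log2 ratio, 1160 genes in each, from the lowest (1) to the highest (10). The panels give the median of the 3′ UTR length in bases, the exons per kilobase of transcript and the CPM per kilobase in each assay, and the percentage of genes whose 3′ UTR holds each motif: exons per kilobase climb from 1.7 to 5.22 while the shares with a motif fall after the third decile.

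Along the same deciles, the median total level climbed from 3.29 to 21.1 CPM per kilobase and the median 4sU level went down from 12.8 to 5.31. Both levels enter the ratio by which the deciles were cut, so these values are a description only.

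At the low end, 4 loci stood apart with a log2 ratio under -8. Gm15564, an antisense locus, had 2.59, 2.68 and 2.9 CPM in total RNA and 2926, 2820 and 2813 CPM in 4sU RNA. Lars2, which encodes the mitochondrial leucyl-tRNA synthetase (chr9:123366927-123462664, mm10), had 40 CPM in each total library and 21002, 19306 and 20990 CPM in 4sU RNA. Mir6236 (-9.76) and Gm23935 (-9.35), both of the microRNA class, were the others. The 4sU signal of these loci was between 510-fold (Lars2) and 1030-fold (Gm15564) over the total signal, with no overlap between assays. The labels name ribosomal RNA depletion for total RNA and do not name it for the 4sU RNA, and whether the reads at these loci come from ribosomal RNA was not tested.

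The mitochondrial genome, which encodes subunits of the respiratory chain and the RNAs that translate them, supplied the next group. All 15 of its genes tested were called below, and their median log2 ratio minus that of all genes, the relative median used for every list from here on, was -5.055. Of the 15, 7 encode proteins. In 6 of the 15 the minimum was reached only in 4sU RNA, and all 8 at the minimum in all 6 libraries were called below. mt-Nd2, a complex I subunit, had 178, 159 and 165 CPM in total RNA and 8311, 7849 and 8141 CPM in 4sU RNA, a log2 ratio of -5.6 ± 0.05 (SE). mt-Co1, a complex IV subunit, had the least negative ratio of the coding genes at -1.43 ± 0.03, with 2779, 2625 and 2734 CPM against 7489, 7101 and 7409 CPM. Reads on the mitochondrial genome made up 5.48% to 5.56% of the 4sU libraries and 0.392% to 0.42% of the total libraries. The spread within each assay was small beside this difference, and its origin was not tested.

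**Figure D3:**
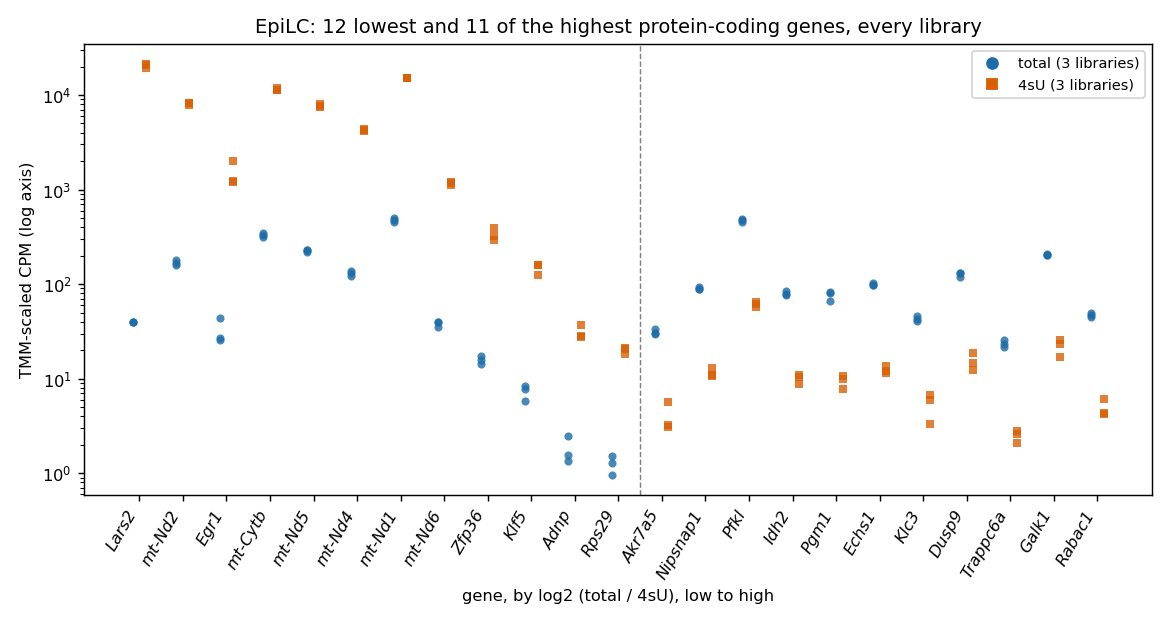
TMM-scaled CPM (log axis) of the 12 protein-coding genes with the lowest and 11 of the 12 with the highest log2 ratio in EpiLCs, among called genes whose assays did not overlap and whose libraries averaged 10 CPM or more. Each point is 1 library, 3 total and 3 4sU per gene: the points of an assay lie close together, and for Egr1 the total libraries span 25.9 to 44 CPM and the 4sU libraries 1190 to 1988 CPM.

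Immediate early genes, which growth factors switch on without new protein synthesis, formed the lowest of the lists of nuclear protein-coding genes. Of 35 immediate early and growth-factor response genes, 31 were called below and none above, with a relative median of -2.34. Without the 4 members that reached the minimum in 4sU RNA alone, and 1 more, 26 of 30 were called below, with a median of -2.35 relative to the genes at the minimum in all 6 libraries. Egr1, a zinc finger transcription factor induced by serum and ERK signalling, had 44, 25.9 and 26.7 CPM in total RNA and 1988, 1218 and 1190 CPM in 4sU RNA, a log2 ratio of -5.53 ± 0.23. Replicate 1 was the highest in both assays, and every 4sU library exceeded every total library, as in 5602 of the 13516 genes tested. All 3 Egr genes, all 4 Klf genes, all 3 Zfp36 genes and 6 of 7 Fos and Jun genes were called below.

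Zfp36 encodes tristetraprolin, a protein that binds AU-rich elements and brings about the decay of the messages that hold them. Its own transcript had 17.4, 14.2 and 15.9 CPM in total and 389, 289 and 319 CPM in 4sU RNA (log2 ratio -4.39 ± 0.13). Fos, the AP-1 subunit, had 10.9, 7.01 and 5.69 CPM against 113, 66.7 and 59.8 CPM (-3.37 ± 0.26). At the other end of the list, Jund, an AP-1 subunit, had 170, 189 and 191 CPM against 181, 179 and 180 CPM, and Srf, the serum response factor that drives many of these genes, 124, 132 and 130 CPM against 166, 149 and 125 CPM. The libraries of both assays overlapped for Jund and for Srf, whose log2 ratios were 0.03 ± 0.06 and -0.19 ± 0.08. The genes of this list had 0.947 exons per kilobase of transcript (median) against 3.36 over protein-coding genes, and 21 of 35 (60%) held TATTTAT in the 3′ UTR against 29.6%.

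The AU-rich letters of the 7 lowest members that hold them, with a mean of at least 10 CPM, are shown, because these are the short motifs that the comparison of UTRs counted; capitals mark TATTTAT within 29 bases, read 5′ to 3′ on the transcript strand from GENCODE M21 transcripts, with mm10 positions.
Zfp36 (chr7:28376966-28376994, minus strand): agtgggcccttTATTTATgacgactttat
Zfp36l1 (chr12:80108422-80108450, minus strand): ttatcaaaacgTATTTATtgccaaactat
Fos (chr12:85477103-85477131, plus strand): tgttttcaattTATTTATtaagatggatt
Klf2 (chr8:72320988-72321016, plus strand): aaacagactgcTATTTATtggaccttagg
Klf6 (chr13:5868490-5868518, plus strand): gctacgtctctTATTTATgccttgaggac
Ier3 (chr17:35822481-35822509, plus strand): tgtctaattaaTATTTATgTATTTATgta
Jun (chr4:95049079-95049107, minus strand): ttgcttgtgcaTATTTATaatagcgttcg

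Their log2 ratios ran from -4.39 in Zfp36 through -3.73 in Zfp36l1, -3.37 in Fos, -3.16 in Klf2, -2.55 in Klf6 and -2.5 in Ier3 to -2.41 in Jun. The number of copies did not follow the ratio: the 3′ UTR of Ier3 held 4 matches and that of Jun 1. Egr1, the lowest member, held no TATTTAT and 1 TGTANATA.

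Genes that dampen ERK signalling were low as well. Of 16 ERK pathway feedback genes, 10 were called below and 1 above, with a relative median of -2.14. Phlda1, a pleckstrin homology-domain protein induced by growth factors, had 4.2, 3.05 and 2.8 CPM in total and 62.2, 45 and 40.1 CPM in 4sU RNA (-3.88 ± 0.23). Dusp1, a phosphatase that inactivates MAP kinases, had 21.4, 21.3 and 18.2 CPM against 305, 263 and 253 CPM (-3.75 ± 0.1). For both, every 4sU library was over every total library, as in 5602 of the 13516 genes tested. Of the Dusp genes in this list 4 of 6 were called below, and of the Spry and Spred genes, which encode inhibitors of the Ras and ERK cascade, 5 of 6. Etv4, an ETS factor that ERK activity induces, was the exception, with 40.6, 48.9 and 55.8 CPM in total and 17.3, 16.5 and 17.5 CPM in 4sU RNA (1.49 ± 0.16). Dusp9, an X-linked MAP kinase phosphatase that is not in the list, was among the 12 highest coding genes, with 132, 119 and 131 CPM in total and 18.9, 12.4 and 14.6 CPM in 4sU RNA (3.08 ± 0.14). Genes of the same family thus lay at opposite ends: Dusp1 at the percentile 1.92 of all genes tested and Dusp9 at the percentile 99.71.

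Targets and feedback genes of other pathways leaned the same way. Of 20 TGF-beta family, BMP and Notch targets, 14 were called below and 1 above (relative median -1.38). Smad7, the inhibitory Smad, had 118, 94.5 and 115 CPM in total and 853, 632 and 784 CPM in 4sU RNA, and Hes1, the Notch-induced repressor, 33.8, 29.8 and 31.5 CPM against 205, 150 and 186 CPM. Hes6, a relative that antagonises Hes1, was called above at 1.08 ± 0.11, but not when any 1 of the 4sU libraries was left out (0.77 to 0.97). Of 14 Wnt targets and antagonists, 8 were called below and none above (relative median -1.45), with Tcf7l2 (-3.54 ± 0.15) and Tcf7l1 (-3.2 ± 0.09), the DNA-binding partners of beta-catenin, at the low end. Of 19 p53 target genes, 7 were called below (36.8%, against 24.7% of all genes) and none above. Their relative median was -0.71, and 0.045 with no expression minimum, where the median log2 ratio of all 28579 genes was -0.45. Cdkn1a, the cyclin-dependent kinase inhibitor p21, had 22.2, 17.9 and 19.4 CPM against 361, 282 and 263 CPM (-3.93 ± 0.13), whereas Bax, a promoter of apoptosis, had 86.9, 94 and 92.9 CPM against 49, 45 and 43.7 CPM, just short of the fold threshold at 0.99 ± 0.08. Not all targets of a factor were therefore at the same level of relative stability.

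Transcription factors of pluripotency and of the formative state were spread over more than 5 units of log2 ratio. Of 32 measured, 18 were called below and 3 above, with a relative median of -1.12. Klf5, a Krüppel-like factor of naive cells, was lowest with 8.41, 7.75 and 5.79 CPM in total and 161, 125 and 158 CPM in 4sU RNA (-4.33 ± 0.16). Myc followed with 25.1, 21.1 and 26.7 CPM against 369, 283 and 338 CPM (-3.76 ± 0.11). At the top stood Etv4 and Tcf3, an E protein, the latter with 146, 146 and 151 CPM against 50.5, 55.3 and 52.7 CPM (1.48 ± 0.07).

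The best known factors, named here after their values were seen, took different positions in that range. Pou5f1 (Oct4) had 529, 541 and 532 CPM in total and 209, 204 and 191 CPM in 4sU RNA, a log2 ratio of 1.4 ± 0.05. Sox2, its DNA-binding partner, had 41.7, 36.4 and 41.6 CPM against 127, 94 and 109 CPM (-1.45 ± 0.1). Nanog lay between them at -0.42 ± 0.07, with 261, 259 and 261 CPM against 397, 311 and 339 CPM. In none of these genes did the libraries of the assays overlap. This was common: of the 13516 genes tested, 5886 had total higher and 5602 total lower without overlap. Of the factors that mark the formative state, Otx2 (-1.12 ± 0.09) and Pou3f1 (-1.5 ± 0.06) were called below: Otx2 had 62.6, 53.9 and 56.8 CPM in total and 143, 108 and 130 CPM in 4sU RNA. Fgf5, the secreted growth factor used to mark these cells, had 39.8, 40.4 and 46.7 CPM against 103, 101 and 116 CPM (-1.33 ± 0.08).

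The Pumilio letters were found in the 3′ UTR of 18 of the 32 factors (56.2%) against 26.4% of protein-coding genes. The matches of 4 of the 5 lowest factors that hold them, with a mean of at least 10 CPM, are shown as examples; capitals mark TGTANATA, and strand and build are as for the AU-rich letters.
Klf5 (chr14:99313906-99313934, plus strand): ttccgaatttTGTAAATAtgcaaatcagc
Zic2 (chr14:122479562-122479590, plus strand): tttgacaaacTGTACATAgcggacgcctt
Mycn (chr12:12936593-12936621, minus strand): ggaacacttgTGTAAATAccattgataca
Sall1 (chr8:89027968-89027996, minus strand): taataaagtcTGTATATAaatgtacactt

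Their log2 ratios were -4.33 for Klf5, -2.28 for Zic2, -2.02 for Mycn and -1.74 for Sall1. Pou5f1, whose ratio was positive, held neither motif in its 3′ UTR of 221 bases, while Sox2 held 1 match to each. The principal transcript of Myc carries no annotated 3′ UTR, so Myc counts as having no match here.

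Other DNA-binding and chromatin genes differed from list to list. Of 322 zinc finger genes named Zfp and a number, 134 were called below and 7 above (relative median -0.82), and of 52 homeobox, Sox and Fox genes 30 below and 3 above (relative median -1.12). Foxo1 and Foxo4, both effectors of insulin signalling, differed in direction: Foxo1 had 33.4, 27.5 and 25.1 CPM in total and 250, 168 and 189 CPM in 4sU RNA (-2.81 ± 0.14), and Foxo4 145, 149 and 151 CPM against 42.3, 44.7 and 44.9 CPM (1.75 ± 0.07). Of 33 Polycomb genes, 8 were called below and 2 above, and of 55 histone lysine methylases and demethylases 14 below and 6 above, with relative medians of -0.4 and -0.48. Within this second list Setd1b, which places an activating mark on histone H3, stood at -3.47 ± 0.12 and Ehmt2, which places a repressive one, at 2.46 ± 0.09. Ehmt2 had 179, 168 and 173 CPM in total and 31.9, 32.3 and 29.4 CPM in 4sU RNA. The shares called below in the Polycomb and histone lysine lists, 24.2% and 25.5%, were close to the 24.7% of all genes, and with no expression minimum their relative medians turned to 0.36 and 0.14. In that setting the median log2 ratio of all genes was itself lower, at -0.45 against 0.04.

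DNA methylation enzymes went the other way: 5 of 9 were called above and 2 below, with a relative median of 1.17. Dnmt3b, the de novo methyltransferase that rises in formative cells, had 1063, 1335 and 1358 CPM in total and 324, 354 and 341 CPM in 4sU RNA (1.88 ± 0.09). Dnmt1, the maintenance enzyme, had 439, 473 and 477 CPM against 163, 168 and 145 CPM (1.54 ± 0.06). The members called below both act in demethylation: Tet3 (-1.52 ± 0.07), an oxidase of methylated cytosine, and Tdg (-1.03 ± 0.14), a DNA glycosylase. In Tdg 57.1% of the 50-base windows of the transcript also occur in other genes, and its call was lost under some alternatives.

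Genes that act on RNA lay at several positions. Among 24 proteins that bind AU-rich elements or Pumilio sites, 11 were called below and 1 above (relative median -0.96), and 15 of the 24 (62.5%) held TATTTAT themselves. Besides Zfp36, Zfp36l1 had 12.8, 13.6 and 14.3 CPM in total and 206, 171 and 167 CPM in 4sU RNA (-3.73 ± 0.11). Of 15 m6A writers, readers and erasers 7 were called below (46.7%, against 24.7% of all genes) and none above, led by Cbll1 (-2.7 ± 0.08) and Ythdc1 (-1.58 ± 0.05). Of 39 SR proteins and hnRNPs 9 were called below (23.1%, near that background) and 1 above, and their relative median of -0.37 turned to 0.37 with no expression minimum and to 0.002 with length and uridine trends removed. The machinery that these factors recruit stood near the balance point: of 46 RNA decay genes 6 were called above and 7 below, and of 16 microRNA pathway genes 2 above and 2 below. In the decay list, Cnot3 (-2.18 ± 0.09), a subunit of the CCR4-NOT deadenylase, and Patl1 (-2.15 ± 0.07), a decapping activator, were lowest. Skiv2l (1.92 ± 0.14), the cytoplasmic exosome's helicase, and Exosc7 (1.59 ± 0.1), an exosome subunit, were highest.

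Non-coding classes were mostly low, but many of their members could be measured in 4sU RNA alone. Of 712 TEC loci tested, 709 were called below, and 523 had reached the minimum only through 4sU; of the 117 at the minimum in all 6 libraries, 115 were called below. For intergenic long non-coding genes the latter count was 53 of 85, for antisense genes 31 of 36 and for microRNA genes 7 of 7, against 16% of all genes at the minimum in all 6. Over 648 genes of the long non-coding classes, 8 were called above. The highest were Ndufb1-ps (2.55 ± 0.12), H19 (2.03 ± 0.27), Tmem250-ps (1.48 ± 0.12) and Ifi30 (1.25 ± 0.13), and the lowest Gm15564, Gm47430 (-5.38 ± 0.21), Gm42659 (-4.81 ± 0.26) and Gm15903 (-4.11 ± 0.22). H19, the maternally expressed imprinted RNA, had 83.2, 92.6 and 149 CPM in total and 20.9, 23.6 and 36.5 CPM in 4sU RNA, with replicate 3 the highest in both assays.

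Host genes of snoRNAs, spliced RNAs whose introns carry the snoRNAs, were low as a group: 14 of 16 were called below and none above, and 12 of the 14 at the minimum in all 6 libraries. Gas5 had 237, 242 and 233 CPM in total and 1463, 1493 and 1417 CPM in 4sU RNA (-2.62 ± 0.04), and the 2 not called were Snhg14 (0.05 ± 0.06) and Snhg11 (-0.49 ± 0.12). The snoRNA genes themselves were spread widely, with 43 of 214 called above (20.1%, near the 21.2% of all genes) and 112 below (52.3%, against 24.7%). Of the 214, 51 had reached the minimum only in 4sU RNA. Of the 125 at the minimum in all 6 libraries, 31 were called above and 46 below, where all such genes had 21.6% above and 16% below. Of the abundant structural RNAs, Rmrp, the RNA of RNase MRP, had 9696, 9457 and 9927 CPM against 970, 1171 and 1129 CPM (3.16 ± 0.05), and Rpph1, the RNA of RNase P, 9012, 9019 and 9859 CPM against 1260, 1165 and 982 CPM (3.03 ± 0.06). The Y RNAs were higher still but varied: Rny1 had 523, 411 and 236 CPM in total and 9.95, 22 and 28.1 CPM in 4sU RNA (4.35 ± 0.5). Tsix (-3.57 ± 0.1), antisense to Xist, and Mir17hg (-3.38 ± 0.05), host of the miR-17 cluster, were lowest in that list. For spliceosomal snRNA genes and processed pseudogenes the side of the median depended on the minimum: the relative medians were -1.6 and -1 in the main comparison, and 1.95 and 0.83 among genes at the minimum in all 6 libraries. Leaving out any 1 of the 4sU libraries also moved both to the positive side, to between 0.26 and 1.24 for snRNA genes and between 1.39 and 1.5 for processed pseudogenes.

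The highest coding genes were of several kinds. The 12 coding genes with the highest ratio included Rabac1, Galk1, Trappc6a, Dusp9, Klc3, Echs1, Pgm1, Idh2, Pfkl, Nipsnap1 and Akr7a5, from 3.24 ± 0.19 down to 2.94 ± 0.23. Galk1, which phosphorylates galactose, had 202, 208 and 204 CPM in total and 23.2, 25.7 and 17.1 CPM in 4sU RNA, a 9.17-fold ratio. Idh2, the mitochondrial isocitrate dehydrogenase, had 84, 78.2 and 76.2 CPM against 11, 10.3 and 8.73 CPM. Echs1, an enzyme of fatty acid oxidation, had 98.1, 98.5 and 104 CPM against 11.5, 13.8 and 12 CPM. The lowest total library exceeded the highest 4sU library in each of the 12, as the rule for naming them demands. In ESCs the same 12 genes lay between the percentiles 95.73 and 99.92 of the ratio, and the 12 lowest between 0.02 and 6.26.

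Glycolysis gave 14 of 21 genes called above, against 21.2% of all genes, and 1 below, with a relative median of 1.77. Pfkl, the liver-type phosphofructokinase (chr10:77986947-78009807, mm10), had 472, 492 and 450 CPM in total and 64, 56.7 and 62.1 CPM in 4sU RNA (2.96 ± 0.07). Ldha, which makes lactate, had 1085, 1235 and 1172 CPM against 153, 154 and 166 CPM (2.89 ± 0.06). Hk2, a hexokinase, was near the balance point at 0.17 ± 0.05. The 1 gene below was Gapdh, at 8.51, 9.04 and 6.95 CPM in total and 50.5, 57.8 and 54.6 CPM in 4sU RNA; 82.5% of its 50-base windows also occur in transcripts of other genes, and reads were kept only where they mapped to 1 place, so that its value is uncertain.

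Serine, glycine and one-carbon metabolism had 13 of 18 genes called above and 1 below (relative median 1.73). Gcat, which degrades threonine, had 82.6, 75 and 85.3 CPM in total and 14, 11.5 and 14.2 CPM in 4sU RNA (2.62 ± 0.14). The member below was Mat2a (-1.83 ± 0.04), the S-adenosylmethionine synthetase, a message known to be regulated through its 3′ UTR and intron retention, with 346, 332 and 370 CPM against 1247, 1266 and 1221 CPM. Aminoacyl-tRNA synthetases had 18 of 21 called above and none below (relative median 1.63), and none of the 21 held TGTANATA in the 3′ UTR. The list leaves out Lars2, the mitochondrial leucyl-tRNA synthetase described at the low end, which was called below (-8.99 ± 0.06). Vars, the valyl-tRNA synthetase, had 441, 441 and 462 CPM against 96.1, 98.4 and 95.4 CPM (2.21 ± 0.06). Of the 3 not called, 2 were Fars2 (0.63 ± 0.18), a mitochondrial enzyme, and Rars (0.81 ± 0.06).

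The nuclear-encoded subunits of the respiratory chain had 59 of 76 called above and 6 below, with a relative median of 1.61. Calls above came from each part of the chain: 30 of 35 complex I genes, 4 of 4 complex II genes, 6 of 9 of complex III, 10 of 12 of complex IV and 9 of 15 of the ATP synthase. Atp5e, the epsilon subunit of the synthase, had 79.4, 72.4 and 71.8 CPM in total and 9.44, 10.8 and 12.6 CPM in 4sU RNA (2.77 ± 0.14). Complexes I and IV also contain the products of mt-Nd2 and mt-Co1, whose ratios lay on the other side. The lowest nuclear genes were Cox7c (-3.04 ± 0.08) and Cycs (-2.29 ± 0.12), in which 53% and 28.5% of windows occur in other genes. Mitochondrial ribosomal proteins were less far out, with 26 of 75 above and 2 below (relative median 0.6).

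Protein turnover was similar. Of 38 proteasome genes 29 were called above and none below (relative median 1.55): 16 of 18 subunits of the 20S core and 13 of 20 of the 19S particle, with medians of 1.79 and 1.38. Psma7 had 300, 308 and 308 CPM in total and 63.8, 67 and 63.4 CPM in 4sU RNA (2.23 ± 0.06), and Psma3, the lowest, 52.9, 56.4 and 52.7 CPM against 66.8, 65.8 and 69.8 CPM (-0.32 ± 0.07). Each of the motifs searched was in 3 of 38 proteasome 3′ UTRs (7.89%). Lysosomal hydrolases and cathepsins had 14 of 23 above and none below (relative median 1.17). In the chaperone list all 8 Cct chaperonin genes were called above, against 2 of 17 heat shock and co-chaperone genes. Cct5 had 1006, 1038 and 1054 CPM against 292, 285 and 288 CPM (1.84 ± 0.04), while Dnaja1, an Hsp40 co-chaperone, had 55.9, 60.4 and 62.4 CPM against 159, 140 and 130 CPM (-1.26 ± 0.08).

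Structural and replication genes had moderately high ratios. Of 39 collagens, laminins and integrins 18 were called above and 4 below (relative median 0.94), led by Col2a1 (2.68 ± 0.14) and Col18a1 (2.48 ± 0.06). Tubulins and actins had 15 of 32 above and 2 below (relative median 0.82), and Tubb3, a tubulin used as a neural marker, had 38.8, 53 and 48.5 CPM in total and 6.38, 8.72 and 8.08 CPM in 4sU RNA. DNA replication genes had 19 of 42 above and none below (relative median 0.68). Pold1, the catalytic subunit of polymerase delta, had 170, 190 and 174 CPM against 33.4, 32.1 and 26.2 CPM, and the licensing factors Cdt1 (-0.92 ± 0.07) and Cdc6 (-0.9 ± 0.06), whose proteins act in G1, were lowest. Replication-dependent histones, whose messages end in a stem-loop rather than a poly(A) tail and are degraded at the end of S phase, had 18 of 59 below and none above (relative median -0.78). Many histone genes are near-copies of each other, with a median of 45.8% of windows shared, so their separate values are uncertain.

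**Figure D4:**
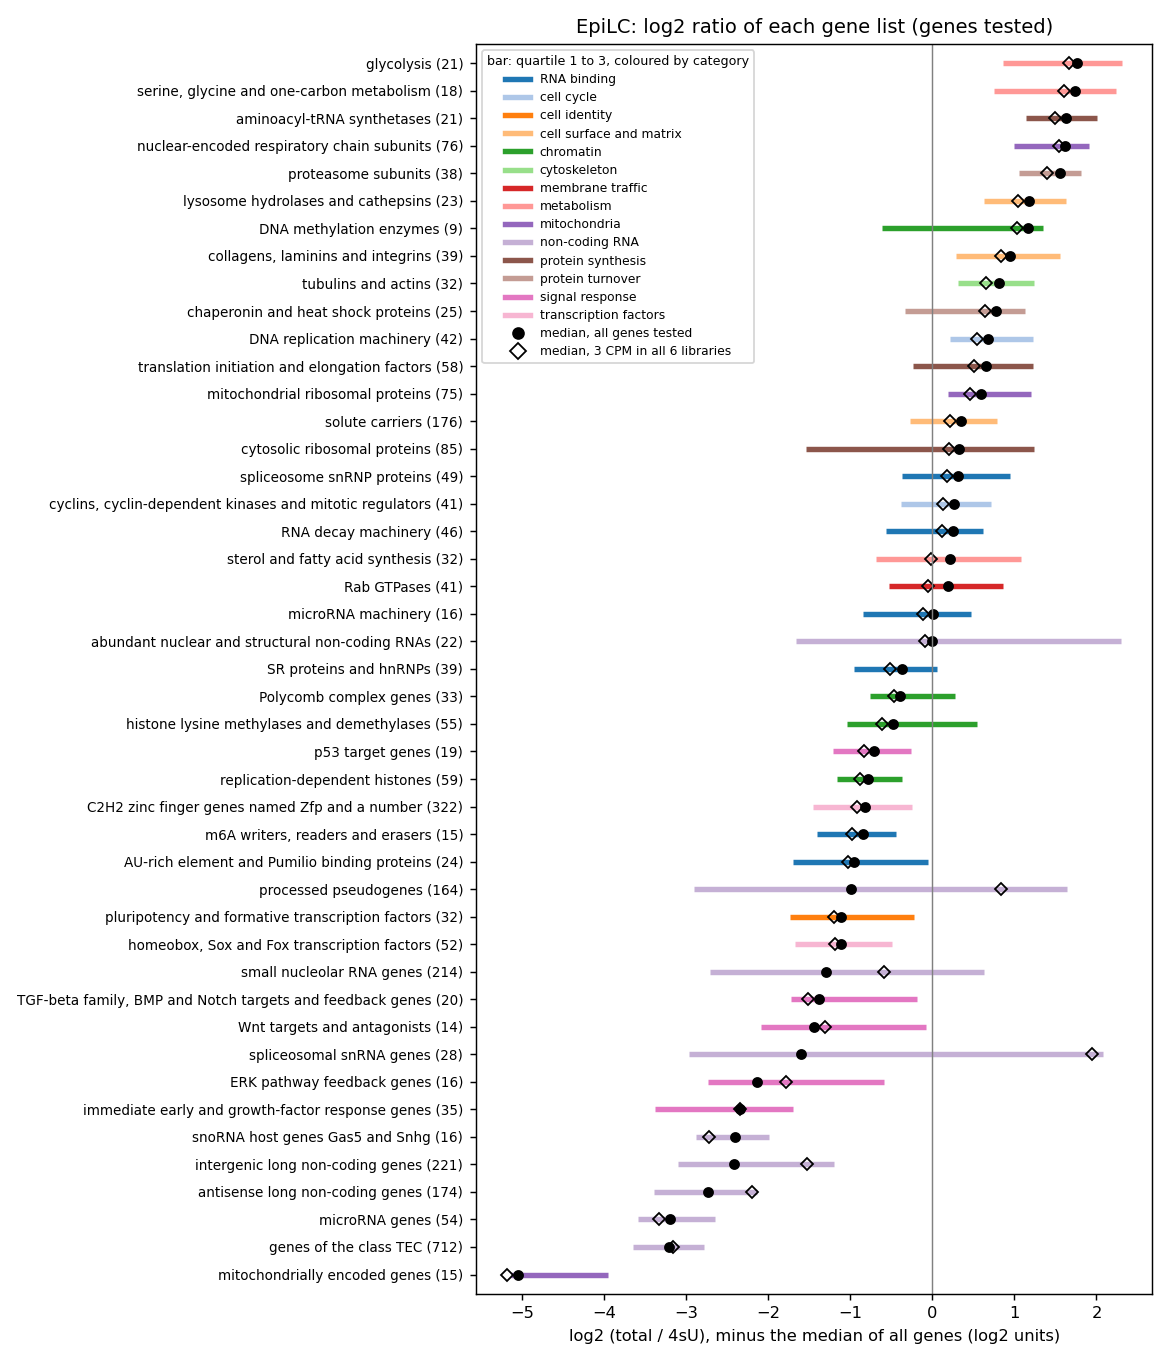
Log2 ratio of each of 45 gene lists in EpiLCs minus the median of all genes tested: dots are medians, bars run from the first to the third quartile and diamonds are medians over the genes at the 3 CPM minimum in all 6 libraries, minus the median of those genes. Glycolysis, one-carbon metabolism, aminoacyl-tRNA synthetases, respiratory chain and proteasome lie between 1.55 and 1.77 at the top and the mitochondrially encoded genes at -5.055 at the bottom; diamonds fall on the other side of 0 from their dots for snRNA genes, processed pseudogenes, Rab GTPases, sterol synthesis and the microRNA machinery.

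Cytosolic ribosomal proteins, known for long-lived messages, were split: of 85 tested, 27 were called above and 28 below, with a relative median of 0.33. The list is drawn by gene name, and 83 of the 85 have a coding transcript. Rps3a3, called above at 2.23 ± 0.1, is a processed pseudogene. Rplp0, of the stalk of the large subunit, had 1035, 1078 and 1125 CPM in total and 230, 228 and 208 CPM in 4sU RNA (2.28 ± 0.05). Rps13, of the small subunit, had 7.44, 8.4 and 8.11 CPM against 113, 115 and 104 CPM (-3.79 ± 0.11). Ribosomal protein genes have many processed pseudogenes, and their ratio differed between the ends of the range of 50-base windows that also occur in other genes. The 16 genes with over 75% such windows had a median log2 ratio of -2.53, with 11 below and none above. The 15 genes with up to 25% of such windows, and the 2 with none, had medians of 1.31 and 1.85, with 12 above and 1 below in all. In between, the 33 genes with over 25% and up to 50% and the 19 with over 50% and up to 75% had medians of 0.36 and 0.4, with 8 and 7 above and 11 and 5 below. The subunits did not stand apart by this count, with 14 above and 14 below of 49 large subunit genes and 13 above and 12 below of 34 small subunit genes, Rps3a3 included.

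**Figure D5:**
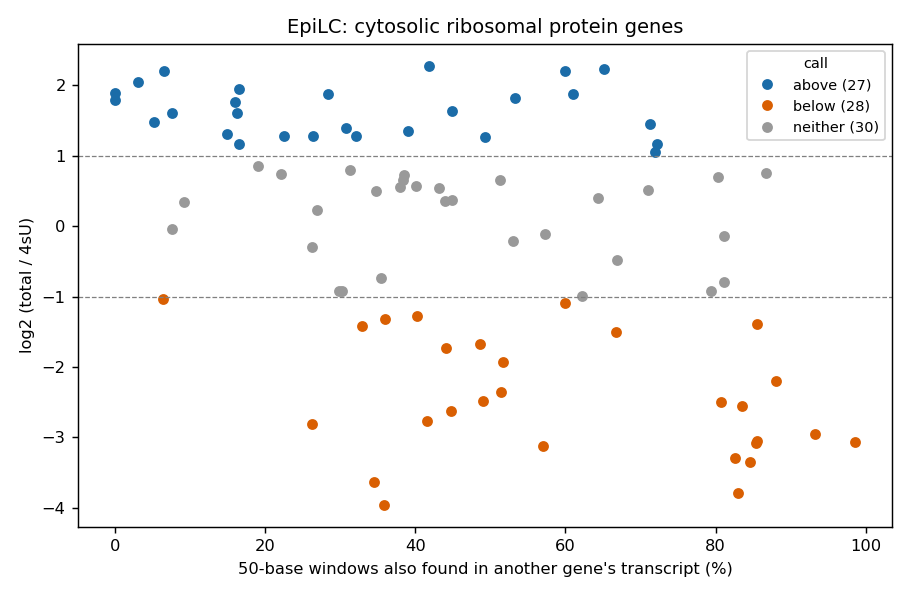
Log2 ratio in EpiLCs (y axis) of each cytosolic ribosomal protein gene against the percentage of its 50-base transcript windows that also occur in a transcript of another gene (x axis), 1 point per gene, coloured by call, with dashed lines at log2 ratios of 1 and -1. Genes over 75% reach a median of -2.53, those up to 25% lie mostly over 1, and those between have medians of 0.36 and 0.4.

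Over all protein-coding genes the median was 0.29 in the 8321 genes with no such window, 0.06 in the 2786 with up to 25%, 0.08 in the 298 with up to 50%, -0.3 in the 131 with up to 75% and -0.85 in the 64 genes with over 75%, of which 42.2% were called below. Actg1 (gamma-actin, 55.9% of windows shared) had 4.1, 4.24 and 4.73 CPM in total and 45.4, 42.4 and 34 CPM in 4sU RNA, and Hnrnpa1 (46.4%) 34.9, 28.9 and 26.5 CPM against 271, 272 and 254 CPM. Both were called below, and both are, like Gapdh, known for abundant messages. Among the 12 lowest coding genes, mt-Nd4 (-5.04 ± 0.05) has 62.2% shared windows and Rps29 (-3.96 ± 0.23) has 35.8%. Adnp (-4.12 ± 0.24) shares 86% of its exon length with another gene on the same strand. The values of these genes are therefore uncertain. Among the 12 highest the largest share was 0.0543%. What part multiple mapping has in these values was not tested.

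The remaining lists lay closer to the balance point. Translation factors had 19 of 58 above and 4 below (relative median 0.65). Within them Eif4a2 (-2.53 ± 0.04), a helicase whose gene hosts snoRNAs, had 448, 462 and 406 CPM in total and 2486, 2576 and 2544 CPM in 4sU RNA, and 9 of 14 Eif3 subunit genes were called above. Solute carriers had 36 of 176 above and 13 below, with the zinc exporter Slc30a1 (-2.33 ± 0.1) and the amino acid transporter Slc38a2 (-1.81 ± 0.04), both known to respond to the supply of their substrates, at the low end. Spliceosome proteins had 12 of 49 above and 7 below, cyclins and mitotic regulators 7 of 41 each way, and Rab GTPases 8 of 41 above and 5 below. Of 32 genes of sterol and fatty acid synthesis, 10 were called above and 5 below: Acly (1.59 ± 0.05), which makes cytosolic acetyl-CoA, was highest and Idi1 (-1.97 ± 0.15), an SREBP target that isomerises isopentenyl diphosphate, was lowest. The shares called above in these 6 lists, 17.1% to 32.8%, lay on both sides of the 21.2% of all genes, and those called below, 6.9% to 17.1%, under the 24.7%.

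Of the 45 lists, 21 had a median over and 24 under that of all genes, and 43 lay on the same side in ESCs. The difference between the EpiLC and the ESC ratio was tested in a fit of all 12 libraries, in which 182 of 14731 genes (1.24%) were called higher and 45 (0.305%) lower in EpiLCs. These counts depend on single libraries: 72 to 572 higher and 21 to 86 lower were called when 1 of the 12 was left out, the most without ESC total replicate 3. Of the genes named by rule, 5 were among them. Col2a1 had a log2 ratio of 2.68 in EpiLCs and 0.48 in ESCs, and Srf -0.19 and -1.47. Hes1 went from -1.41 in ESCs to -2.49 in EpiLCs. Setd1b and Mir6236 were the others. For Otx2, Sox2, Nanog and Dnmt3b the differences were 0.25, -0.13, 0.11 and -0.13 and did not pass the test (adjusted p 0.711, 0.835, 0.719 and 0.668, limma-voom).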

How the data were processed

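Total RNA and 4sU RNA were measured in EpiLCs and ESCs, 3 libraries of each. The authors trimmed single-end 50-base reads with cutadapt 1.14, mapped them with STAR 2.5.3a to mm10, kept reads with 1 place in the genome and counted them by strand over exons of GENCODE M14 basic genes with featureCounts 1.5.3; the deposited values are raw counts per gene. All 12 count columns were used, 0 were left out, and the 92 spike-in entries held 0 reads. Gene classes came from GENCODE M21, which holds 99.6% of the gene IDs.

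The 6 EpiLC libraries were fitted with limma-voom 3.58.1 (R 4.3.3) after TMM scaling in edgeR 4.0.16, with the 3 CPM minimum in at least 3 libraries that the study's methods use. Each log2 ratio is total minus 4sU with its SE, and p-values were adjusted by Benjamini-Hochberg over all genes. Simulated counts held 200 genes with a set ratio, among 13122 tested. The 49 genes set at 4-fold and the 50 set at 8-fold were called in the right direction in 100% of cases. The rest of the 200 are not reported here. Scaling and calling where most genes lie off the balance point, as in these libraries, was not tested in this way. The EpiLC ratio was compared with the ESC ratio by an interaction term over all 12 libraries. Named genes were the 12 highest and 12 lowest coding and the 4 highest and 4 lowest long non-coding genes among called genes whose assays did not overlap and whose libraries averaged 10 CPM or more, and the 2 highest and 2 lowest members of each list; 3 genes that met these rules or held a printed motif are not reported here. Gene lists, members and tests were chosen with earlier results of these data known. Transcript features came from 1 principal transcript per gene. Shared windows are 50-base stretches also present in a transcript of another gene that does not overlap. Alternatives changed the scaling, minimum, tool, pairing, reference transcript and libraries. Printed errors are SEs over replicates, and the number of reads limits the precision on the side where a gene has fewer of them.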

Additional observations from a re-analysis of the deposited data

Results flagged for a closer look

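For 5 of the genes named in EpiLCs the log2 ratio differed from that in ESCs by the interaction test of limma-voom over all 12 libraries. Col2a1, a fibrillar collagen, was higher in EpiLCs by 2.29 ± 0.28 (SE, adjusted p 0.00127), with a ratio of 2.68 in EpiLCs and 0.48 in ESCs, and the difference was 2.15 to 2.47 when each of the 12 libraries was left out in turn, with the call kept in every fit. Srf, the serum response factor, was higher by 1.36 ± 0.17 (adjusted p 0.00127), at -0.19 against -1.47, and ranged from 1.26 to 1.51 with the call kept in every fit. Hes1, the Notch-induced repressor, was lower in EpiLCs by 1.01, a difference of -1.01 ± 0.15 (adjusted p 0.00402), at -2.49 against -1.41. Its difference lay so close to the fold threshold that it fell short in 6 of the 12 fits that left out 1 library (-1.14 to -0.9 over all), with adjusted p up to 0.0205 in those 6: without EpiLC total replicate 2, EpiLC 4sU replicate 1 or 3, ESC total replicate 1, or ESC 4sU replicate 1 or 3. Setd1b, a histone methylase, was higher by 1.26 ± 0.25 (adjusted p 0.0153), at -3.47 against -4.64, and was no longer called once EpiLC total replicate 3 or ESC total replicate 1 was left out (highest adjusted p 0.0536). Mir6236 was lower, with a difference of -2.35 ± 0.5 (adjusted p 0.0186), at -9.76 against -7.35, and lost its call when EpiLC total replicate 2 or 3 was left out, where the adjusted p reached 0.0679. The causes of these differences were not tested.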

How the results depend on the processing

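The 198 named genes were checked with other scalings, other tools, sample quality weights, the replicate block and all 12 libraries in 1 fit. Each EpiLC library was also left out in turn. No gene with a call changed sign in these fits, and 8 lost their call in at least 1 (Rbbp7, Hes6, Xpo5, Ago3, Tdg, mt-Tm, Gm37254 and Itgb8). The 32 named by rank kept their call in all those run. They were chosen as the most extreme called genes without overlap in these same libraries, so the choice itself favoured kept calls. Changed minimums, the test against 2-fold, trend removal and subsets of genes were not checked gene by gene. The counts above and below, 2866 and 3345, became 4756 and 8282 with no minimum (28579 genes), 1864 and 2026 with 3 CPM in all 6 libraries, and 5768 and 5563 by adjusted p alone; the count above was 1804 when the ratio was tested against 2-fold (treat), and the count below 2176 with coding genes alone. Leaving out 1 library gave 2198 to 2747 above and 2373 to 3267 below, the lowest without a 4sU library, when genes seen in 4sU RNA alone drop out and 12096 to 12106 genes are tested. Scaling on nuclear coding genes gave 2186 and 3785 (36.6% of calls above, against 46.1%) and moved the median of all genes to -0.16, and upper-quartile scaling moved it to -0.08, from 0.04; relative medians of lists leave this shift out. Leaving out genes with over 25% shared windows, chosen after seeing the data, gave 2714 and 3172.

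The fold between the 75th and 25th percentile, 3.59, was 4.82 with no minimum, 3.19 at 10 CPM, 2.81 at 3 CPM in all 6, 2.86 in coding genes and 2.94 to 3.57 without 1 library; that between the 99th and 1st, 94.4, was 79, 48.6, 43.2 and 62.2 to 90.8 under the same settings from 10 CPM on. The lowest-over-highest-decile ratio of 3′ UTR length was 3.18, and 3.44 with the longest UTR; that of the share with TATTTAT was 3.4, and 1.88 per 1000 bases; that with TGTANATA was 3.51, 3.68 with the longest UTR and 1.8 per 1000 bases.

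Relative medians of lists changed side for sterol synthesis (0.21, to -0.02 with 3 CPM in all 6), Rab GTPases (0.19, to -0.14 at 10 CPM), microRNA machinery (0.01, to -0.25 with length and uridine trends removed), SR proteins and hnRNPs (-0.37, to 0.002 there), abundant nuclear RNAs (-0.01, to 2.06 without same-strand overlap, chosen after seeing the data), snRNA genes (-1.6, to 1.95 with 3 CPM in all 6) and processed pseudogenes (-1, to 1.5 without 4sU replicate 1). With no minimum, p53 targets (0.05), Polycomb genes (0.36), histone lysine enzymes (0.14) and SR proteins (0.37) lay over all genes, whose own median log2 ratio was -0.45 there against 0.04.

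The RNA of each sample was split between the assays, but the labels do not say that equal numbers share a culture. The deviations of same-numbered total and 4sU libraries correlated at 0.11, 0.0868 and 0.0192, and each total library correlated best with the 4sU library of its number, a hint from the data only, while 4sU replicate 3 correlated best with total replicate 2 (0.05). A replicate block gave 2832 above and 3344 below. For EpiLC against ESC, 182 higher and 45 lower became 438 and 90 with the block, 28 lower with library totals, and 72 to 572 higher and 21 to 86 lower without 1 library, the most without ESC total replicate 3. Why these counts moved was not tested. Depth limits low values most: 3 reads are up to 0.969 CPM in 4sU RNA and 0.323 CPM in total RNA.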

Other observations

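The count table lists 92 spike-in entries, and 0 reads fell on them in the 12 libraries, so no absolute scale could be set for either assay. Replicates of the EpiLC total RNA differed beyond counting error (chi-square per degree of freedom 2.23 to 4.24), and so did those of the 4sU RNA (1.41 to 2.17), so that no library was counted as a repeat of another.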
